A study of Schistosoma mansoni with 6 samples.

Results

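The fibroblast growth factor (FGF) receptor genes fgfrA (Smp_175590) and fgfrB (Smp_157300) of the blood fluke Schistosoma mansoni were followed across 6 RNA-seq libraries from irradiated and mock-irradiated worms. They were taken by identifier from a table of 13305 rows, 10770 of which have annotated exons, because both genes have a known role in the worm's somatic stem cells. That role was reported in part from this same material, so the direction of their change is not independent evidence of it. The table itself calls both products only "tyrosine kinase", and the receptor names come from the identifiers. Both genes passed the filter on low counts in every kind of read tested below except reads over intron-exon boundaries, where fgfrA had too few.

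The irradiated group comprised 3 libraries from adult male worms of the NMRI strain, harvested from mice 43 days after infection, exposed to 200 Gy of gamma rays and kept in culture for 48 hours. The control group comprised 3 libraries from males of the same strain, age and culture that were mock irradiated (0 Gy). In both groups the head and testes were cut away and RNA was taken from the remaining posterior somatic tissue in pools of 14 to 18 worms. Each group has libraries labelled A, B and C. No label states that these were separate infections, so the p-values reflect only how much the pools varied, which may be technical.

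FGF receptors are receptor tyrosine kinases that sit in the cell membrane. When a ligand brings them together they phosphorylate one another and, through adaptor proteins, turn on Ras and the MAP kinase cascade, phosphoinositide 3-kinase and Akt, and transcription factors of the Ets and Egr families. Neoblasts, the stem cells of flatworms, are the somatic cells that divide, and gamma rays stop their division. In S. mansoni, fgfrA is expressed in these cells, and its knockdown by RNA interference reduces their maintenance. In pooled tissue, fewer cells of a type and less RNA per cell cannot be told apart.

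Both receptor transcripts were lower 48 hours after irradiation, with a larger estimated fall for fgfrA than for fgfrB. About 31.6% of the control level of fgfrA exon reads was left, and 51.0% of that of fgfrB. Reads over splice junctions fell by about as much, leaving 33.6% for fgfrA and 49.7% for fgfrB. Reads that lay within the fgfrA gene but outside its exons fell less, leaving 64.6%. Each kind of read was scaled by its own library totals. The fall outside the exons was not called when scaled by exon read totals or when irradiated library A was left out.

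The table gives fgfrA as 1 transcript with 13 exons, 12 splice junctions and an exon length of 2796 bases. Its total exon reads numbered 239, 210 and 230 in irradiated libraries A, B and C, against 820, 653 and 476 in control libraries A, B and C. Scaled by library size (CPM), these were 8.08, 9.72 and 9.61 in irradiated libraries, against 30.6, 28.6 and 27.2 in control libraries. All 3 irradiated libraries lay below all 3 control libraries, and the groups were separated by more than the spread within either one. The means were 9.14 ± 0.919 CPM in irradiated and 28.8 ± 1.71 CPM in control libraries (SD, n = 3 each). The log2 fold change was -1.66 (SE 0.09, adjusted p = 7.46e-06, edgeR quasi-likelihood test with Benjamini-Hochberg adjustment over 8885 genes), a 3.17-fold fall that ranked 73 of 8885 from the lowest change.

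The shorter fgfrB has 10 exons, 9 junctions and an exon length of 1932 bases in 1 transcript. Its total exon reads numbered 451, 368 and 377 in irradiated libraries A, B and C, against 890, 668 and 552 in control libraries A, B and C. On the CPM scale these were 15.2, 17.0 and 15.8 in irradiated libraries, against 33.2, 29.2 and 31.5 in control libraries. The groups did not overlap here either. The means were 16.0 ± 0.922 CPM in irradiated and 31.3 ± 1.99 CPM in control libraries (SD, n = 3 each), and the log2 fold change was -0.97 (SE 0.08, adjusted p = 7.59e-05, edgeR, same test). This 1.96-fold fall ranked 113 of 8885.

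Both members were thus called lower at an adjusted p under 0.05, where the background was 2.49% of tested genes (221 of 8885). The share called higher was 0.619%, and 1.13% were called lower by at least 2-fold, as fgfrA was. Groups that do not overlap, with irradiated below control, were commoner, at 13.3% of tested genes. The authors' deposited table gives a fold change of -3.09 for fgfrA and of -1.92 for fgfrB, on RPKM, as a signed ratio of group means in which a negative value means lower after irradiation.

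**Figure D1:**
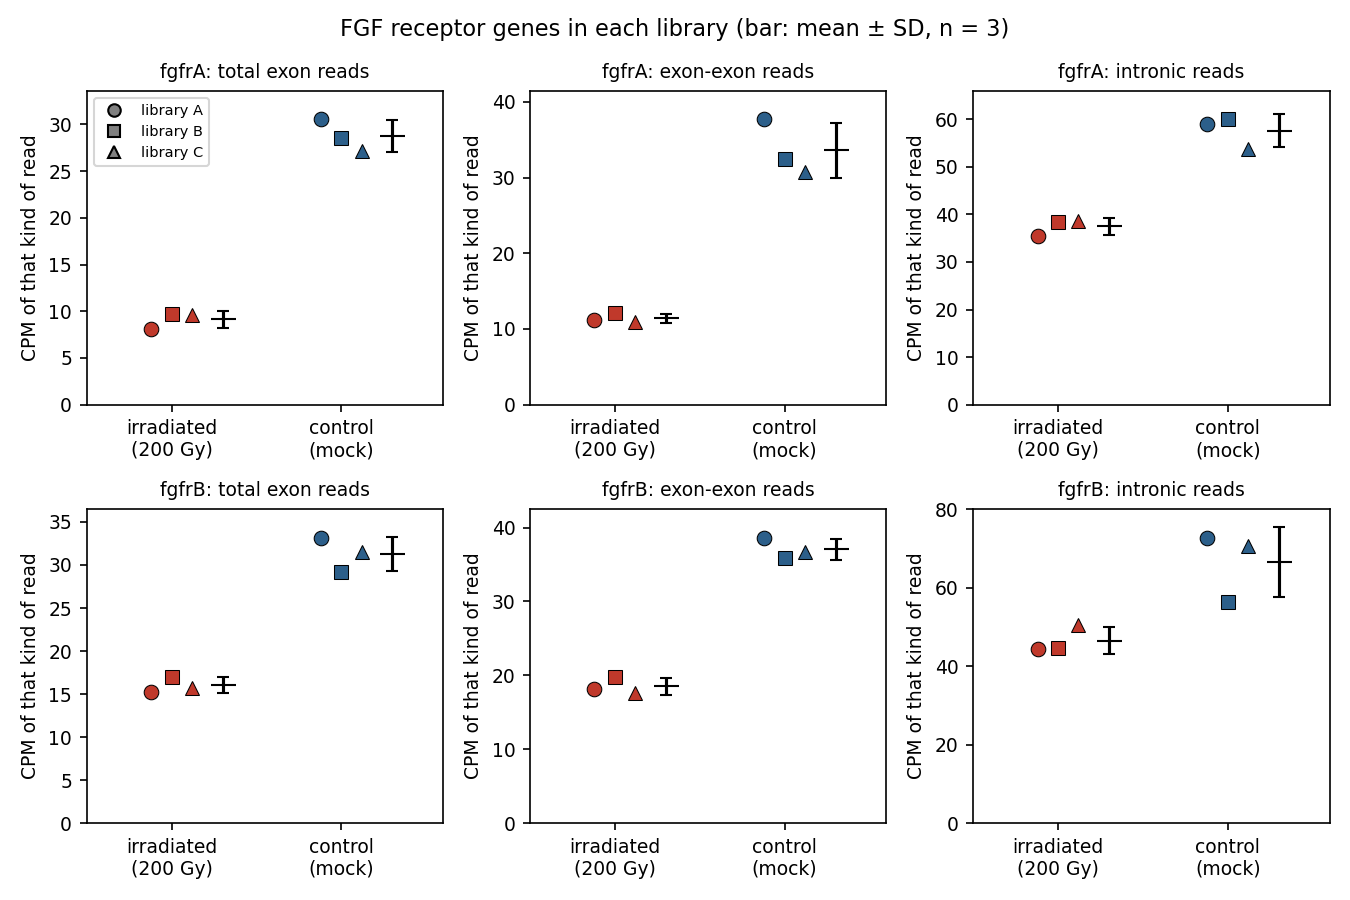
CPM of fgfrA (top row) and fgfrB (bottom row) in each library, for total exon reads, exon-exon reads and intronic reads, with irradiated libraries left of control libraries; bars give the mean ± SD of 3 libraries. In all 6 panels every irradiated library lies below every control library, and the ratio between the groups is nearest to 1 in the intronic panels.

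Neither fall involved reads placed at several sites in the exons. Total and unique exon reads were identical for both receptors in all 6 libraries, so no exon read of either gene also mapped elsewhere. With unique exon reads fitted across 8839 genes, the log2 fold change was -1.66 for fgfrA (adjusted p = 5.29e-06, edgeR) and -0.97 for fgfrB (adjusted p = 5.29e-05, edgeR), against a background of 2.61% called lower and 0.656% higher. Over the whole gene with introns, reads placed at several sites numbered 1 to 4 in irradiated and 5 to 11 in control libraries for fgfrA, and 0 to 3 in irradiated and 4 to 8 in control libraries for fgfrB. No annotated gene overlapped either receptor in the order of genes in RefSeq assembly ASM23792v2. The genes next to fgfrA, Smp_102820 and Smp_034440, had log2 fold changes of 0.01 and 0.07, and those next to fgfrB, Smp_157290 and Smp_157310, had -0.21 and 0.15, none of them called.

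Exon-exon reads cross a splice junction and so come from spliced RNA. For fgfrA they numbered 108, 85 and 86 in irradiated libraries A, B and C, against 331, 239 and 178 in control libraries. For fgfrB they numbered 176, 139 and 138 in irradiated libraries, against 339, 265 and 212 in control libraries. For both genes all irradiated values were below all control values, also as CPM, where this held for 11.8% of genes. The log2 fold change was -1.57 for fgfrA (SE 0.11, adjusted p = 4.82e-06, edgeR over 7264 genes) and -1.01 for fgfrB (SE 0.09, adjusted p = 3.54e-05, same fit), where 2.51% of genes were called lower and 0.592% higher.

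As a share of its exon reads, fgfrA's exon-exon reads made up 45.2%, 40.5% and 37.4% in irradiated libraries, against 40.4%, 36.6% and 37.4% in control libraries. These groups overlapped, and the difference of 2.90 percentage points (SE 2.54) had an exact permutation p of 0.3 (2-sided). For fgfrB the share was 39.0%, 37.8% and 36.6% in irradiated libraries, against 38.1%, 39.7% and 38.4% in control libraries. Its difference of -0.92 points (SE 0.85) had an exact permutation p of 0.4, and both p-values were 0.4 after adjustment over the 4 ratios between kinds of read. The shares leaned on single libraries: the fgfrA difference was 0.81 without irradiated library A and 4.71 without irradiated library C, and that of fgfrB was -1.53 and -0.32 without the same libraries and -0.45 without control library B. No change in the spliced share was detectable at this depth. With 3 libraries against 3, the smallest p this test allows is 0.1.

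Intronic reads, here gene reads minus exon reads, can come from unspliced RNA, from exons that the annotation lacks or from other sources. The table does not tell these apart, and their origin was not tested. For fgfrA they numbered 143, 125 and 120 in irradiated libraries A, B and C, against 224, 267 and 140 in control libraries. Scaled by the intronic reads of each library (intronic CPM), these were 35.4, 38.5 and 38.5 in irradiated libraries, against 59.1, 60.0 and 53.8 in control libraries. The groups did not overlap on that scale, as in 10.3% of genes tested in intronic reads, and fgfrA was called lower, at -0.63 on the log2 scale (SE 0.11, adjusted p = 0.0123, edgeR over 7539 genes). Of all genes tested in intronic reads, 0.252% were called lower and 0.398% higher. The call was lost without irradiated library A (log2 fold change -0.59, adjusted p = 0.112, edgeR) and when exon library sizes were used in place of intronic ones (-0.85, adjusted p = 0.103, edgeR), a scaling that moved the median of all genes to -0.22.

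Intronic reads of fgfrB numbered 179, 145 and 157 in irradiated libraries A, B and C, against 276, 251 and 184 in control libraries. As intronic CPM, these were 44.3, 44.6 and 50.4 in irradiated libraries, against 72.8, 56.4 and 70.7 in control libraries. Every irradiated value lay below every control value, as in the same 10.3% of genes, with control library B nearest. The log2 fold change of -0.51 (SE 0.12) did not pass the threshold (adjusted p = 0.0712, edgeR over 7539 genes). Without control library B it was -0.63 and passed (adjusted p = 0.0212, edgeR).

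**Figure D2:**
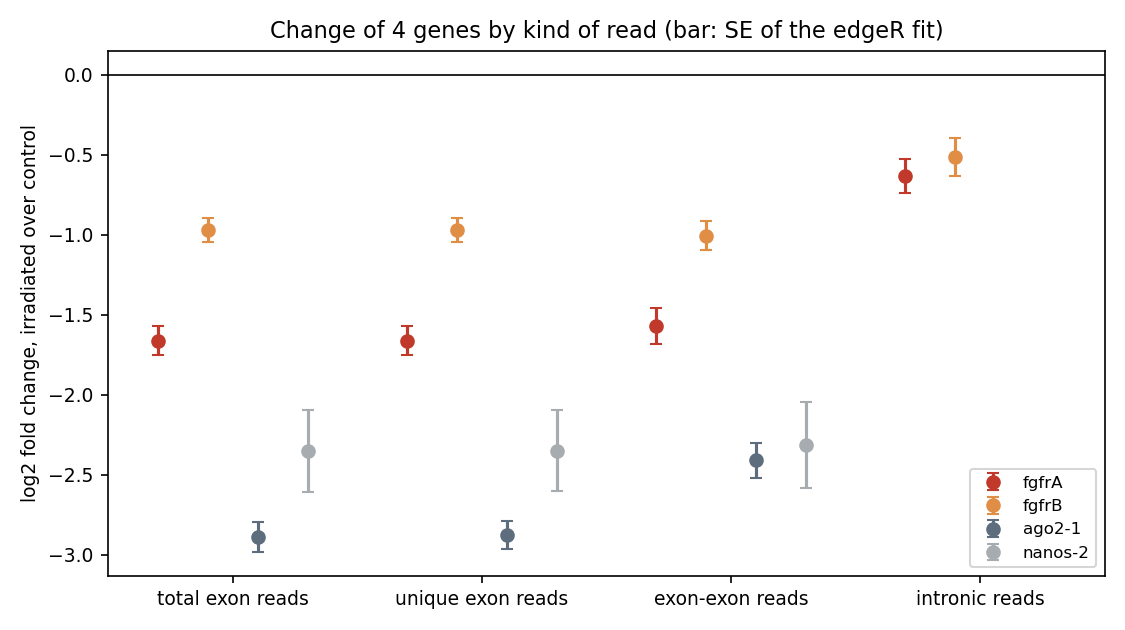
Log2 fold change, irradiated over control, of fgfrA, fgfrB and the stem cell genes ago2-1 and nanos-2 in each kind of read; points are edgeR estimates and bars their standard errors. The receptors fell by about as much in exon-exon as in exon reads, and their estimates are nearer 0 in intronic reads, where fgfrA stands at -0.63 and fgfrB at -0.51; ago2-1 and nanos-2 had too few intronic reads to be placed.

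The 2 kinds of read were then compared within each library. Intronic reads of fgfrA numbered 59.8, 59.5 and 52.2 per 100 exon reads in irradiated libraries A, B and C, against 27.3, 40.9 and 29.4 in control libraries. All irradiated libraries were above all control libraries, and control library B was the highest of its group. The means were 57.2 ± 4.34 in irradiated and 32.5 ± 7.31 in control libraries (SD, n = 3 each). The difference of the log2 ratio was 0.83 (SE 0.19), with an exact permutation p of 0.1 (2-sided, adjusted p = 0.2 over the 4 ratios), the smallest that this test can give.

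For fgfrB the same ratio was 39.7, 39.4 and 41.6 per 100 exon reads in irradiated libraries, against 31.0, 37.6 and 33.3 in control libraries. The groups did not overlap, with control library B again nearest to the irradiated group; whether the shift differed between the receptors was not tested. The difference of the log2 ratio was 0.25 (SE 0.08, exact permutation p = 0.1, adjusted p = 0.2). In all, 1.93% of 7254 genes had a ratio that was higher after irradiation with no overlap.

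A fit over all genes that scaled exon and intronic reads separately, kept the library as a block and tested whether the change differed between the kinds of read was added after the data had been seen. In it, the log2 fold change of fgfrA's intronic reads was higher than that of its exon reads by 1.03, a smaller fall (SE 0.13, adjusted p = 5.23e-05, edgeR over 7260 genes), which ranked 55 of 7260 from the highest. The background was 0.537% called in this direction and 0.0413% in the other. For fgfrB the value was 0.45 (SE 0.13) and was not called (adjusted p = 0.12, edgeR). The fgfrA call held when each library was left out in turn, with values between 0.98 and 1.08.

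That fgfrA pattern was shared by other genes that fell. Of 68 other genes called lower by at least 2-fold in exon reads and present in the same fit, 65 had a value above 0, and 29 were called, with a median of 1.23 against 0.02 over all genes. These genes were chosen on exon reads, which enter the value, so the count is a description. Summed over all genes with exons, intronic reads numbered 13.7, 15.0 and 13.2 per 100 exon reads in irradiated libraries, against 14.0, 19.2 and 15.1 in control libraries. Control library B was thus high for all genes as it was for the receptors. Leaving it out gave 1.08 for fgfrA and 0.39 for fgfrB in the fit of both kinds of read.

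**Figure D3:**
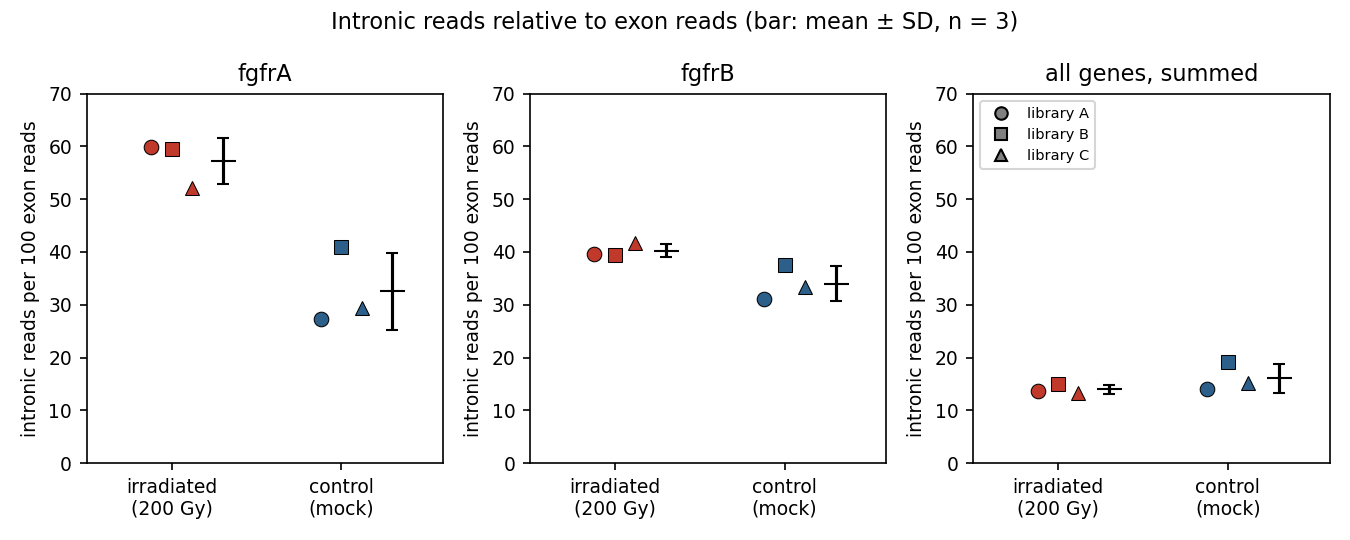
Intronic reads per 100 exon reads of fgfrA, of fgfrB and of all genes with exons summed, in each library, with irradiated left of control and bars for the mean ± SD of 3 libraries. For fgfrA the irradiated libraries sit between 52.2 and 59.8 and the control libraries between 27.3 and 40.9, while over all genes the highest value, 19.2, is that of control library B.

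The table also counts reads that cross an intron-exon boundary, and these counts never exceeded a gene's exon reads, in which they fit. For fgfrA they numbered 1, 4 and 1 in irradiated libraries, against 9, 8 and 1 in control libraries, too few to test. For fgfrB they numbered 29, 26 and 33 in irradiated libraries A, B and C, against 83, 53 and 53 in control libraries. These did not overlap, as in 7.8% of genes tested on the CPM scale, and the log2 fold change was -1.15 (SE 0.21, adjusted p = 0.00233, edgeR over 5767 genes, with 0.277% called lower and 0.139% higher), which was lost without irradiated library A (adjusted p = 0.0989, edgeR). Relative to fgfrB's exon reads they made up 6.43% to 8.75% in irradiated and 7.93% to 9.60% in control libraries, which overlap. The boundary reads of fgfrB therefore stood close to its exon reads in size of change, but they appear to be counted among them. Its intronic estimate was nearer 0, at -0.51 on intronic library sizes and -0.72 on exon library sizes. The difference between its intronic and exon changes was not called (adjusted p = 0.12, edgeR). The test of intron-exon reads was also added after the data had been seen.

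The receptors were next set against each other. Per exon length, fgfrA stood at 2.50, 2.99 and 3.01 RPKM (exon reads scaled by exon length and by the gene reads of the library) in irradiated libraries A, B and C, against 9.52, 8.48 and 8.31 RPKM in control libraries. The level of fgfrB was 6.83, 7.59 and 7.14 RPKM in irradiated libraries, against 14.9, 12.6 and 13.9 RPKM in control libraries. The ratio of fgfrB to fgfrA was thus 2.73, 2.54 and 2.37 in irradiated libraries, against 1.57, 1.48 and 1.68 in control libraries. In every library fgfrB was the more abundant per length, an order that rests on the annotated exon lengths. The lead of fgfrB was larger in all irradiated than in all control libraries. The log2 ratio of fgfrA to fgfrB differed by -0.69 (SE 0.08) between irradiated and control libraries, with an exact permutation p of 0.1 (2-sided, adjusted p = 0.1 over 5 ratios between genes), again the smallest possible.

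Both were genes of moderate to low level. Among the 10770 genes with exons, the mean RPKM of fgfrA was at percentile 26.7 in irradiated and 39.1 in control libraries. That of fgfrB was at percentile 36.7 in irradiated and 46.8 in control libraries. Among the 8885 tested genes the places were lower. There fgfrA was at percentile 11.2 in irradiated and 26.2 in control libraries, and fgfrB at 23.2 in irradiated and 35.5 in control libraries. A count of 0 would have allowed up to 3 reads, or 0.101 to 0.171 CPM, which limits counting error only, and both genes stood well above it.

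Beside them stood ago2-1 (Smp_179320), an Argonaute protein, and nanos-2 (Smp_051920), a member of the Nanos family of RNA-binding regulators of germ and stem cells. In total exon reads ago2-1 had 4.12, 5.09 and 4.01 CPM in irradiated libraries, against 32.0, 32.8 and 32.7 CPM in control libraries, which left 13.5%. For nanos-2 the values were 2.16, 6.06 and 4.35 CPM in irradiated libraries, against 20.2, 22.8 and 19.2 CPM in control libraries, which left 19.6%. For both genes the groups did not overlap, and the spread within the irradiated group was widest for nanos-2.

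The log2 ratio of fgfrA to ago2-1 was higher in irradiated than in control libraries by 1.23 (SE 0.12), and that of fgfrA to nanos-2 by 0.77 (SE 0.36), which was 0.44 without irradiated library A and 1.05 without irradiated library B. The ratio of fgfrB to ago2-1 was higher by 1.92 (SE 0.09), and that of fgfrB to nanos-2 by 1.46 (SE 0.41). None of these 4 ratios overlapped between groups, and each had an exact permutation p of 0.1 (2-sided, adjusted p = 0.1 over 5). With 3 libraries against 3, these are the same fact. In total exon reads ago2-1 ranked 31 and nanos-2 ranked 45 of 8885 from the lowest change. Higher ratios of the receptors to them follow from these larger falls. On the RPKM scale the order in irradiated libraries, from the highest, was fgfrB at 7.19 ± 0.381, nanos-2 at 3.16 ± 1.46, fgfrA at 2.83 ± 0.289 and ago2-1 at 1.36 ± 0.173 (SD, n = 3). In control libraries it was nanos-2 at 15.3 ± 1.12, fgfrB at 13.8 ± 1.20, ago2-1 at 9.86 ± 0.123 and fgfrA at 8.77 ± 0.655 (SD, n = 3). In irradiated libraries nanos-2 and fgfrA did not differ beyond their spread.

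The genes whose pattern was most like each receptor were found by the root mean square difference of log2 CPM, centred on each gene's mean, over the 6 libraries and 8208 genes. For fgfrA these were Smp_094140, the MCM6 subunit of the helicase that opens DNA for replication (distance 0.146, log2 fold change -1.47), and Smp_179710, serine hydroxymethyltransferase of one-carbon metabolism (0.157, -1.51). Next came Smp_079050, the large subunit of DNA primase (0.163, -1.48), Smp_075110, named as a rad1 DNA damage checkpoint protein (0.212, -1.43), and Smp_138470, which has no product name (0.219, -1.82). The level of MCM6 was 8.72, 8.43 and 10.2 CPM in irradiated libraries, against 25.0, 25.9 and 24.9 CPM in control libraries, close to that of fgfrA in each.

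For fgfrB the nearest were Smp_069600, a hypothetical protein (distance 0.105, log2 fold change -0.96), Smp_148690, a serine/threonine kinase (0.109, -0.79), and Smp_174910, related to importin alpha, a carrier of proteins into the nucleus (0.109, -0.94). They were followed by Smp_063030, a hypothetical protein (0.134, -0.93), and Smp_124300, named as a lamin B receptor (0.143, -0.72). All 10 genes were called lower, but they were chosen for likeness to a receptor that fell in these same libraries, so a fall was built in. The lists shared 0 genes, fgfrB was number 23 in the order for fgfrA, and fgfrA was number 404 in the order for fgfrB. With Pearson correlation as the measure, which leaves out the size of the change, fgfrA was number 1 for fgfrB and fgfrB was number 9 for fgfrA. By that measure 0 of the 5 genes stayed in either list, so the choice of measure decides these names.

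**Figure D4:**
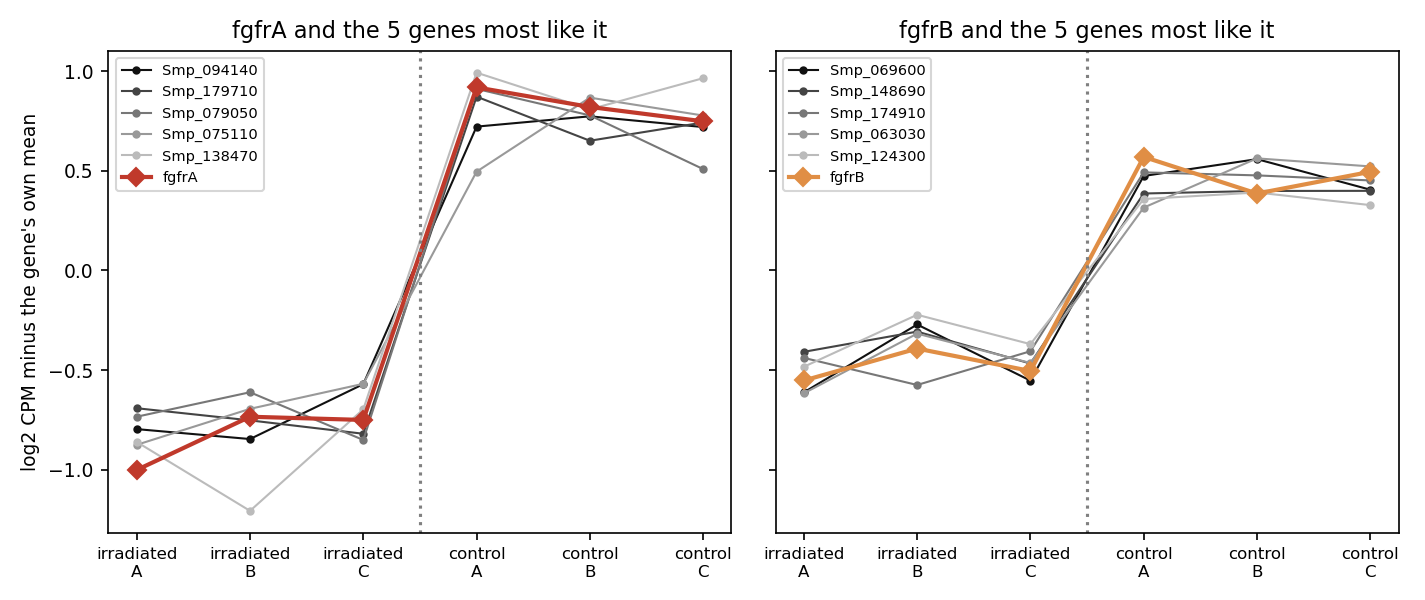
Log2 CPM of total exon reads minus each gene's own mean, over irradiated libraries and then control libraries, for fgfrA and fgfrB (thick lines) and the 5 genes most like each (thin lines). The fgfrA group spans a wider step between the groups of libraries than the fgfrB group, whose genes changed by -0.96 to -0.72.

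Other genes of the FGF pathway were matched by product name, and 3 of the matches were called, a share near the background. Some names belong to proteins other than pathway members. These were kept in the counts, so the shares describe the list of matches. Of 79 genes in the table, 78 were tested, and 2 (2.56%) were called lower and 1 (1.28%) higher, against 2.49% and 0.619% of all genes. The median log2 fold change was -0.03, against 0.00 over all tested genes. At an unadjusted p under 0.05, 17 (21.8%) were lower and 5 (6.41%) higher, against 13.3% lower and 8.27% higher over all genes. The count depended on the method. DESeq2 called 8 lower and 3 higher, where 5.51% of all genes were lower and 1.43% higher, and limma called 1 lower and 1 higher, where 1.68% were lower and 0.236% higher. The counts by role below are to be read against these same shares.

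No product name gave an FGF ligand. The 5 genes matched by the ligand patterns were FGF receptor activating proteins, an intracellular FGF-binding protein and a zic-binding protein, with 0 called (0 at an unadjusted p in edgeR, and 0 by DESeq2 and limma). The most abundant, Smp_153890, had 125 ± 6.01 CPM in irradiated and 120 ± 7.85 CPM in control libraries (SD, n = 3 each). Next was Smp_063250, the zic-binding protein, at 86.4 ± 3.67 CPM in irradiated and 84.4 ± 1.75 CPM in control libraries.

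Among 10 genes matched as other receptor tyrosine kinases, edgeR called 0 (4 lower and 1 higher at an unadjusted p, or 40% and 10%, 3 lower by DESeq2, 0 by limma). The putative receptor Smp_093930 stood at 196 ± 13.4 CPM in irradiated and 236 ± 17.5 CPM in control libraries (log2 fold change -0.27, adjusted p = 0.0671, edgeR). The other most abundant match, Smp_035260, is a substrate of the epidermal growth factor receptor rather than a receptor, and had 309.6 ± 9.75 CPM in irradiated and 277 ± 8.02 CPM in control libraries. A second list, the genes that the table places under the GO term for receptor tyrosine kinase activity, held 35 genes besides fgfrA and fgfrB. It shares Smp_093930, Smp_165470, Smp_152680 and Smp_139480 with the first list. Some of its product names are of other kinds, such as a plexin (Smp_145420) and an activin receptor (Smp_124450). Of the 35 genes, 32 were tested and edgeR called 0, with 2 lower by DESeq2 and 0 by limma. At an unadjusted p, 11 (34.4%) were lower and 0 higher, against 13.3% and 8.27% of all genes. Their log2 fold changes ran from -0.67 to 0.49, with a median of -0.10, so none reached the change of fgfrB.

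The 17 genes matched as adaptors and exchange factors had 0 called by edgeR (4 lower and 1 higher at an unadjusted p, or 23.5% and 5.88%, 2 lower and 1 higher by DESeq2, 0 by limma). They include endophilins with grb2 in their names (Smp_036990, Smp_122030 and Smp_003230) and a Mediator subunit (Smp_150800). The shc adaptor Smp_172110, which links receptors to Ras, had 338 ± 14.5 CPM in irradiated and 327 ± 8.97 CPM in control libraries. The growth factor receptor-bound protein Smp_044530 had 245 ± 4.22 CPM in irradiated and 239.8 ± 5.58 CPM in control libraries. Of 31 genes matched to Ras and the MAP kinase cascade, 30 were tested, and edgeR called 0 (7 lower and 1 higher at an unadjusted p, or 23.3% and 3.33%, 2 lower and 1 higher by DESeq2, 0 by limma). Those tested include Rag proteins (Smp_152790 and Smp_026090) and a farnesyltransferase subunit (Smp_065780). The most abundant of those tested were Smp_030830, a Ras-GAP binding protein, with a log2 fold change of 0.03, and Smp_144590, a Ras GTPase activating protein, which turns Ras off, with 0.11. The 6 genes of phosphoinositide 3-kinase and Akt also had 0 called (1 lower at an unadjusted p in edgeR, 0 by DESeq2 and limma). Here the catalytic subunit Smp_164960 had a log2 fold change of 0.02 and the Akt kinase Smp_073930 had -0.10.

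The 3 called genes were all among the 13 transcription factors and early targets. The ets gene Smp_127020 had 1.56, 2.13 and 1.92 CPM in irradiated libraries, against 3.58, 3.67 and 4.91 CPM in control libraries. It fell by 1.11 on the log2 scale (SE 0.18, adjusted p = 0.0111, edgeR), with no overlap, and lost the call without irradiated library A (adjusted p = 0.0569, edgeR). The early growth response genes encode zinc finger factors that many cells switch on soon after a stimulus, and 2 of them moved in opposite directions. Of these, Smp_134870 had 54.7, 56.0 and 41.9 CPM in irradiated libraries, against 30.8, 24.9 and 24.3 CPM in control libraries, and rose by 0.92 on the log2 scale (SE 0.12, adjusted p = 0.00300, edgeR), a call that held in all 14 alternatives.

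The other, Smp_026270, had 69.4, 91.5 and 70.6 CPM in irradiated libraries, against 101, 117 and 106 CPM in control libraries. Its groups did not overlap, and it fell by 0.49 on the log2 scale (SE 0.10, adjusted p = 0.0393, edgeR). The call was lost in 7 of 14 alternatives, among them leaving out control library B, control library C, irradiated library A or irradiated library C (adjusted p between 0.141 and 0.164, edgeR). The last of the most abundant members, Smp_064240, is a clathrin coat protein matched by the letters ap-1, with a log2 fold change of 0.06.

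**Figure D5:**
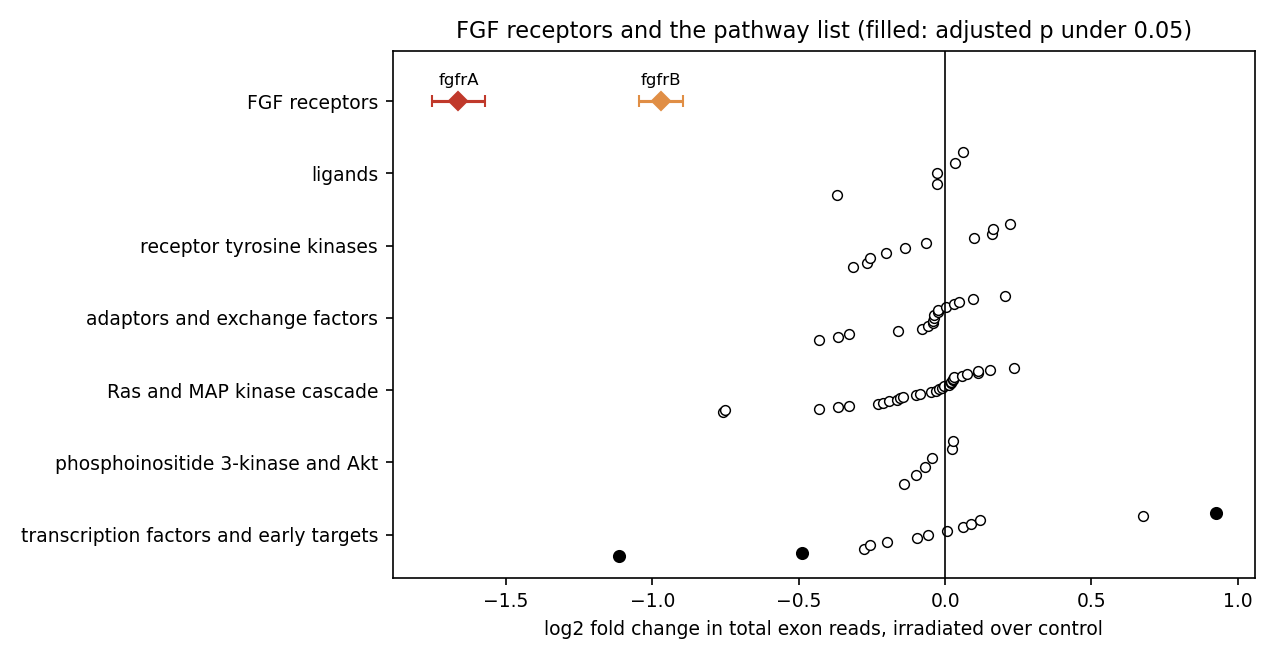
Log2 fold change in total exon reads, irradiated over control, of fgfrA and fgfrB (diamonds, with SE) and of the 78 tested genes of the pathway list by role (circles; filled where the adjusted p was under 0.05; genes of 2 roles are drawn in both). The ets gene is the only listed gene left of fgfrB, none lies left of fgfrA, and the 3 filled circles are the ets gene at -1.11 and the egr genes at -0.49 and 0.92.

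Markers of the labelled tissue were checked beside the receptors. Total exon reads ranged from 21594259 to 29641087 in irradiated and from 17577059 to 26858868 in control libraries. The counts called below are to be read against 2.49% of all tested genes called lower and 0.619% called higher. The lists were chosen with earlier results of these data known. The stem cell list held ago2-1, nanos-2 and genes with histone H2A, cyclin B or MCM2 in their product names. Whether the latter are confined to stem cells was not tested. Of 12 tested genes of this list, 7 were called lower and 0 higher, with a median log2 fold change of -0.95. All 18 listed genes, tested or not, summed to 716 to 732 CPM in irradiated and 781 to 836 CPM in control libraries. The sum thus moved by less than that median. The sums of the other lists also take every listed gene, tested or not. Muscle markers summed to 23087 to 24954 CPM in irradiated and 24298 to 25227 CPM in control libraries, with 2 of 27 tested called lower. The 49 tegument markers summed to 17654 to 18990 CPM in irradiated and 15921 to 16977 CPM in control libraries, with 3 of 45 tested called higher. Genes matched by product name as markers of the removed parts were still detected. Those of testis and meiosis summed to 248 to 255 CPM in irradiated and 250.1 to 284 CPM in control libraries, and of 8 tested, 0 were called. Esophageal gland markers of the head summed to 1048 to 1151 CPM in irradiated and 1061 to 1194 CPM in control libraries. Of these 31 genes, 6 passed the filter on low counts and 8 had 0 reads. Both lists take broad names, such as tektin and venom allergen. Whether their genes are confined to the removed parts was not tested. The part of tissue makeup in the change of the receptors was not tested.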

How the data were processed

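RNA from 6 libraries was made with a TruSeq kit and sequenced on 1 lane for 100 cycles, per the labels' protocols. Per the file headers, the authors deposited read counts per gene (exon, gene, exon-exon and intron-exon reads, each as total and unique), RPKM values and a p-value. They also deposited a signed fold change, a score that is negative where irradiated worms are lower. Not given in the sources used here are the aligner, counting program, strand setting and genome build, so no coordinates are printed. The deposited RPKM values equal the exon reads over the product of exon length and total gene reads of the library (relative difference at most 3.77e-08).

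The 10770 rows with exons entered the filter, and those that passed it in a kind of read were tested. The 2535 rows without exons, holding 0.654% to 1.40% of a library's gene reads, were left out. After filterByExpr and TMM scaling, each kind of read was fitted by itself with the quasi-likelihood test of edgeR 4.0.16 (R 4.3.3). Adjustment was by Benjamini-Hochberg across every tested gene, at a threshold of 0.05. SEs are the unshrunken log2 fold change over the square root of F. Ratios within libraries were tested by exact permutation of the libraries. Scripts were tested on simulated data. Every pair of libraries of a group differed by more than sampling noise (chi-square per degree of freedom 7.38 to 18.0).

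The alternatives were DESeq2 1.42.0, limma 3.58.1 on log2(RPKM + 0.5) and log2(RPKM + 0.1), RLE and upper-quartile scaling, other filters, a replicate block and leaving out each library. Added after seeing the data were exon library sizes and unique reads for the intronic counts, the fit of both kinds of read, intron-exon reads and the GO list. The receptors, marker and pathway lists were chosen with earlier results of these data known. Besides the receptors, the named genes are ago2-1 and nanos-2, the 5 genes most like each receptor (mean log2 CPM 1 or more), called pathway genes and the 2 most abundant members of each role; the genes beside each receptor were added. Product names matched wrongly (such as clathrin AP-1) were kept in the counts. Other marker lists gave 1 gene called lower and 1 higher of 20 tested for neurons, and 0 of 13 for gut. They gave 0 of 2 for vitelline cells and 1 higher of 6 for esophageal gland. Of all tested genes, 2.49% were called lower and 0.619% higher.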

Additional observations from a re-analysis of the deposited data

How the results depend on the processing

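Both receptors stayed lower and called in total exon reads under all 14 alternatives, with log2 fold changes from -1.71 to -1.48 for fgfrA and from -1.02 to -0.90 for fgfrB, and in unique exon and exon-exon reads under all 12. No result reversed. The intronic result of fgfrA was lost with exon library sizes (-0.85, adjusted p = 0.103, edgeR); leaving out each library gave -0.67 to -0.59, with the call lost without irradiated library A. The cause was not tested. For fgfrB, intronic reads became called with the replicate block (-0.52, adjusted p = 0.0131, edgeR) and without control library B, with -0.63 to -0.44 over the libraries left out. Intron-exon reads of fgfrB ran from -1.35 to -0.997 over the libraries left out. In the fit of both kinds of read, fgfrB kept its side of the threshold when each library was left out, at 0.38 to 0.52.

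Counts of genes moved more. Genes called lower numbered 490 with DESeq2, 77 at a minimum of 5 CPM and 119 to 723 with a library left out. Genes called higher numbered 127 with DESeq2, 26 at 5 CPM, 21 with limma at either pseudocount and 16 to 129 with a library left out. Pathway genes called lower numbered 8 with DESeq2, 0 at 5 CPM, 1 with limma at either pseudocount and 0 to 11 with a library left out; those called higher numbered 3 with DESeq2 and 1 to 4 with a library left out. The most were reached without irradiated library B.

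Between libraries that share a letter, the correlations of deviations were 0.04 for A, 0.18 for B and -0.10 for C. With 3 libraries per group these values cannot decide whether the letters mark pairs. The letters were treated as names only. The replicate block called 851 genes lower and 277 higher, and 12 pathway genes lower and 4 higher. Apart from the intronic call of fgfrB, it changed no call of either receptor. Values with a sign-flip test over the letters cannot pass, as the smallest p is 0.25. DESeq2 gave no adjusted p for the intron-exon reads of fgfrB. Intronic results rest on 120 to 179 reads per receptor and library in irradiated worms.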
